A study of Mus musculus with 8 samples.

Results

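The genes described here are the core of the Notch pathway in mouse intestine: the ligands Dll1, Dll4, Jag1 and Jag2, the receptors Notch1, Notch2, Notch3 and Notch4, and the target genes Hes1 and Hes5. They were chosen by name, as every non-control probe that the array files assign to one of these symbols. That gave 10 genes of 20128 tested, read by 12 probes of 55681, and all 10 genes passed the filter on dim probes. The study profiled total RNA from intestinal fragments of 2 cm, taken from untreated 129SV pups at 3 days of age, on single-colour Agilent arrays. Pups without claudin-7, an adhesion protein of epithelial tight junctions and lateral membranes, were set against wild-type pups. Each genotype gave samples of small and of large intestine, which makes 4 groups of 2 arrays, numbered 2 and 3. The labels say only that genotypes were read from tail snips, name no Cre or tissue restriction of the knockout, and do not tie the small and large intestine samples to animals or the numbers to litters. The p-values below therefore measure the spread between these samples, which in wild type may be technical.

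Notch signalling passes between neighbouring cells. A Delta or Jagged ligand on one cell binds a Notch receptor on the next, the receptor is cut by ADAM proteases and γ-secretase, and its intracellular part joins the DNA-binding protein RBPJ to switch on genes of the Hes and Hey families, which encode repressors. In the intestinal epithelium, Notch activity keeps progenitors undifferentiated and favours absorptive cells, while Atoh1, which Hes1 represses, drives the secretory lineages that carry Delta ligands. In blood vessels Dll4, Notch4 and Jag1 act in the endothelium, and Notch3 is the main receptor of pericytes and vascular smooth muscle.

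The levels below are log2 of the processed signal minus the array's 75th percentile, so that 0 is the 75th percentile of all spots. A level on this scale depends on the probe, so levels are compared between arrays and never between genes. Differences are on the log2 scale with their standard error, and a gene passed when its limma p, adjusted over all genes tested, was under 0.05. The number of arrays limits the precision, with a median standard error of 0.28 within a segment. Cldn7 read 5.56 to 5.93 on the wild-type arrays and 0.94 to 2.21 on the knockout arrays, and whether its probe lies in the deleted part of the gene is not stated. Both knockout arrays numbered 3 had high Xist and low Ddx3y, a Y-linked gene, and the other 6 arrays the reverse. By these genes each knockout group holds a male and a female sample, so its arrays come from different animals, while all wild-type arrays read male. In the knockout, sex and array number cannot be told apart. Alb was high on knockout large intestine array 2 alone, and Amy2a5 on wild-type large intestine array 2 and knockout large intestine array 3. All arrays lay on 1 slide with 1 scan time and each group filled 1 slide column, so that column and group cannot be told apart.

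In the small intestine without claudin-7, the ligand Dll1 fell 2.24-fold, and it was the only one of the 10 genes that passed there. Across all genes 9.89% passed in that comparison, so 1 of 10 lies at the background. Notch2, Notch3, Notch4 and Jag1 read higher and Hes1 lower in the knockout small intestine, each without overlap between the groups and each short of the threshold. With 2 arrays a group, 59.3% of all genes were without overlap in that comparison. At an unadjusted p under 0.05 there were 5 of the 10, beside 31.4% of all genes. In the large intestine, and over both segments, 0 of the 10 genes passed in limma, against 0.308% and 0.651% of all genes, with 1 and 3 of them at an unadjusted p under 0.05, beside 13.3% and 15.2% of all genes. The difference of the knockout effect between the segments passed for 0 of 10 in limma, against 0.139% of all genes, with 2 at an unadjusted p under 0.05, beside 25.8% of all genes.

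More of the genes passed between the segments than between the genotypes, and the same held over all genes. In wild type, Dll1 was lower in the large intestine, and Notch4 and Hes5 were higher, so that 3 of 10 passed against 19.9% of all genes. In the knockout, Dll1 and Notch3 were lower and Notch1 was higher in the large intestine, again 3 of 10, against 15.9% of all genes. The values of the pair of arrays did not overlap between genotypes for 6 of the 10 genes in the small intestine (59.3% of all genes) and for 8 in the large intestine (55.3%). Between segments the ranges were apart for 7 of 10 in wild type (69.3% of all genes) and 10 of 10 in the knockout (61.3%). With 4 arrays a genotype over both segments, 0 of 10 had separate ranges, against 5.85% of all genes. The median knockout difference of the 10 genes was -0.02 in the small intestine, beside -0.10 over all genes, and -0.33 in the large intestine, beside -0.00. The median segment difference was 0.51 in wild type, beside 0.00 over all genes, and -0.22 in the knockout, beside -0.03.

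**Figure D1:**
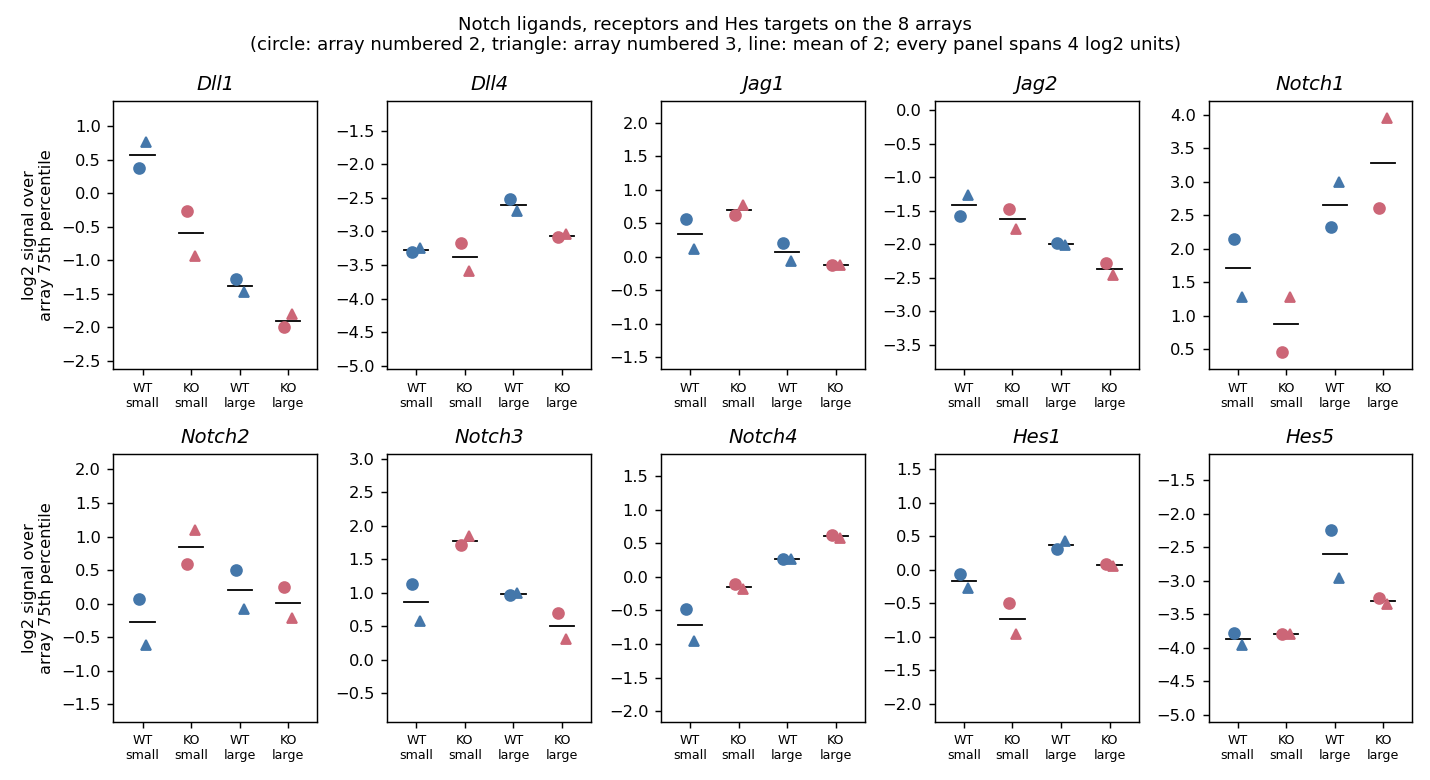
Level of each of the 10 genes on the 8 arrays (vertical axis, log2 signal over the array's 75th percentile; horizontal axis, the 4 groups; circles are arrays numbered 2, triangles arrays numbered 3, lines the mean of both; blue is wild type, red knockout). Dll1 steps down from wild-type small intestine (0.37 and 0.76) to knockout large intestine (-2.0 and -1.81), while Notch4 steps up.

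Dll1 encodes a Delta ligand that is found on secretory cells of the intestine. Its probe, on chr17 (mm9, chr17:15504623-15504682, minus strand), was printed 10 times on each array, which makes it the most closely measured of the 10 genes. The first 30 bases of that probe, shown because the only knockout call among the 10 genes rests on it, are as follows.
Dll1 probe: gattactatgagccagtctttccttgaact
Dll1 read 0.37 and 0.76 in wild-type small intestine, -0.26 and -0.93 in knockout small intestine, -1.29 and -1.47 in wild-type large intestine, and -2.0 and -1.81 in knockout large intestine. No 2 of the 4 groups overlapped, and within each segment both knockout arrays lay below both wild-type arrays. The SD over the 10 spots of an array was 0.024 to 0.064, far below the gap between the arrays of a group in the small intestine. In these bulk samples, fewer cells of a type and less RNA per cell cannot be told apart.

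The knockout difference of Dll1 was -1.16 ± 0.28 in the small intestine (limma, adjusted p = 0.0493). In the large intestine it was -0.52 ± 0.28 (adjusted p = 0.464) and over both segments -0.84 ± 0.23 (adjusted p = 0.144). The difference between those segment effects was 0.64 ± 0.40 (adjusted p = 0.348). The call in the small intestine lies just inside the threshold. It passed without knockout small intestine array 2 (adjusted p = 0.0240) and was lost when any other array was left out, with an adjusted p of 0.0640 and 0.218 without wild-type small intestine array 2 or 3, 0.177 without knockout small intestine array 3, 0.0958 without either wild-type large intestine array and 0.0713 without either knockout large intestine array. It was lost without both knockout arrays numbered 3 (-0.83, adjusted p = 0.210), with no filter on dim probes (0.0764), with outlier flags ignored (0.0501), with an animal block (0.05003) and with every probe tested separately (0.0619), while the direction held in all of these.

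Between the segments, Dll1 was 3.86-fold lower in the large than in the small intestine of wild type (-1.95 ± 0.28, adjusted p = 0.00644), the largest difference of the 10 genes in wild type. In the knockout it was 2.48-fold lower (-1.31 ± 0.28, adjusted p = 0.0257). The wild-type call was lost without wild-type large intestine array 3 (-1.85, adjusted p = 0.0564). The knockout call was lost without knockout small intestine array 2 (-0.98, adjusted p = 0.0706), without knockout large intestine array 2 or 3 (0.0922 and 0.0965) and without either wild-type large intestine array (0.0570).

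**Figure D2:**
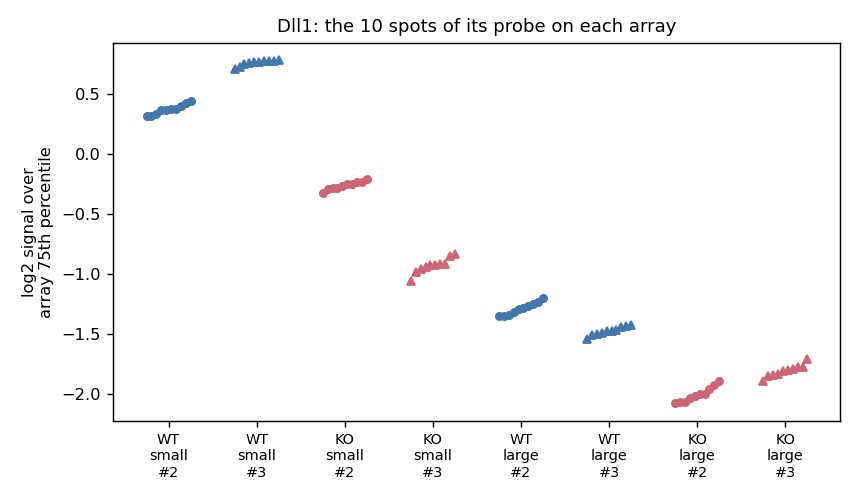
The 10 spots of the Dll1 probe on each of the 8 arrays, sorted within an array (vertical axis, log2 signal over the array's 75th percentile; blue is wild type, red knockout; circles are arrays numbered 2, triangles arrays numbered 3). The spots of an array lie close together, with an SD of 0.024 to 0.064, and the arrays of different groups do not overlap.

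Dll4, the Delta ligand of sprouting endothelium that also signals in the crypt, was read by a probe at chr2:119160779-119160838 (mm9, plus strand). It gave -3.30 and -3.24 in wild-type small intestine, -3.17 and -3.58 in knockout small intestine, -2.52 and -2.70 in wild-type large intestine, and -3.08 and -3.04 in knockout large intestine. Wild-type large intestine was the highest group, and both small intestine groups overlapped. Its knockout difference was -0.10 ± 0.21 in the small intestine (limma, adjusted p = 0.783) and -0.45 ± 0.21 in the large intestine (adjusted p = 0.414). Large minus small intestine gave 0.66 ± 0.21 in wild type (adjusted p = 0.0686) and 0.31 ± 0.21 in the knockout (adjusted p = 0.329).

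Jag1, the Jagged ligand of vessel walls and mesenchyme, was read at chr2:136907433-136907492 (mm9, minus strand). Its levels were 0.57 and 0.11 in wild-type small intestine, 0.62 and 0.77 in knockout small intestine, 0.21 and -0.06 in wild-type large intestine, and -0.12 on both arrays of knockout large intestine. Knockout small intestine stood highest and knockout large intestine lowest, with the wild-type groups between them and overlapping each other. Knockout minus wild type gave 0.36 ± 0.23 in the small intestine (limma, adjusted p = 0.327) and -0.19 ± 0.23 in the large intestine (adjusted p = 0.721). Between the segments Jag1 differed by -0.27 ± 0.23 in wild type (adjusted p = 0.438) and -0.82 ± 0.23 in the knockout (adjusted p = 0.0545).

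Jag2, the other Jagged ligand, was read at chr12:114146887-114146946 (mm9, minus strand). It gave -1.57 and -1.26 in wild-type small intestine, -1.47 and -1.77 in knockout small intestine, -1.98 and -2.01 in wild-type large intestine, and -2.27 and -2.46 in knockout large intestine. The large intestine arrays lay below all small intestine arrays, and the knockout arrays of the large intestine lay lowest. Between the genotypes Jag2 differed by -0.20 ± 0.21 in the small intestine (limma, adjusted p = 0.561) and -0.37 ± 0.21 in the large intestine (adjusted p = 0.489). The segment difference was -0.58 ± 0.21 in wild type (adjusted p = 0.0996) and -0.75 ± 0.21 in the knockout (adjusted p = 0.0575). Of the 4 ligands, all read lower in the knockout large intestine and 3 read lower in the knockout small intestine, but only Dll1 in the small intestine passed. Over all genes 49.9% read higher in the knockout large intestine and 42.8% in the knockout small intestine. The small intestine difference of Dll4 turned to 0.11 without knockout small intestine array 3.

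Among the receptors, Notch1, the main receptor of the crypt epithelium together with Notch2, had a bright and a dim probe. Notch2 likewise had a pair of unlike probes. The first 30 bases of these 4 probes are shown because the probes of a receptor did not give the same answer.
Notch1 bright probe (chr2:26319440-26319499, mm9, minus strand): tcctgcagtggagggggccttgagacaggc
Notch1 dim probe (chr2:26314630-26314689, mm9, minus strand): ttgcttctttccaaaatcgaaaagaaagaa
Notch2 bright probe (chr3:97953914-97953973, mm9, plus strand): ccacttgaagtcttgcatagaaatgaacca
Notch2 dim probe (chr3:97951233-97951292, mm9, plus strand): tcttcaccacactctgcatctgactggtca
The bright probe of each receptor was well above background on all 8 arrays and stood for the gene. The dim probe was well above background on 7 arrays for Notch1 and on 5 for Notch2. For Notch1 the processed signal was 27.8 to 59.5 units on the dim probe and 3634 to 48897 on the bright probe. For Notch2 it was 23.4 to 44.7 and 2110 to 7289 units.

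The bright Notch1 probe read 2.15 and 1.28 in wild-type small intestine, 0.46 and 1.29 in knockout small intestine, 2.32 and 3.00 in wild-type large intestine, and 2.61 and 3.96 in knockout large intestine. The large intestine arrays lay above all small intestine arrays, while the genotypes overlapped in both segments. Notch1 was 5.32-fold higher in the large than in the small intestine of the knockout (2.41 ± 0.55, limma, adjusted p = 0.0318), and in wild type the difference was 0.94 ± 0.55 (adjusted p = 0.265). The difference between these was 1.47 ± 0.78 (adjusted p = 0.283), so the segment effect was not shown to differ by genotype. Knockout minus wild type was -0.84 ± 0.55 in the small intestine (adjusted p = 0.343) and 0.62 ± 0.55 in the large intestine (adjusted p = 0.638), with the widest standard errors of the 10 genes.

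The dim Notch1 probe did not show that difference. It read -5.70 and -6.32 in wild-type small intestine, -6.07 and -6.08 in knockout small intestine, -5.96 and -6.10 in wild-type large intestine, and -6.29 and -6.82 in knockout large intestine. Its large minus small intestine difference in the knockout was -0.48 ± 0.28 (limma over all probes, adjusted p = 0.2997), opposite in sign to the bright probe. On knockout large intestine array 3 the dim probe was not well above background, so its sign says little about Notch1. With the mean of both probes the Notch1 difference was 0.97 (limma, adjusted p = 0.0819) and did not pass. That mean gives the dim probe equal weight, so it is not a separate check of the bright probe. The call on the bright probe was also lost without knockout small intestine array 2 (2.00, adjusted p = 0.116), without knockout large intestine array 3 (1.74, adjusted p = 0.152), without either wild-type large intestine array (0.0577) and without both knockout arrays numbered 3 (2.15, adjusted p = 0.113).

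The bright Notch2 probe read 0.07 and -0.62 in wild-type small intestine, 0.60 and 1.09 in knockout small intestine, 0.50 and -0.08 in wild-type large intestine, and 0.25 and -0.22 in knockout large intestine. Knockout small intestine was the highest group, by a gap of 0.10 to the next array, and the other 3 groups overlapped. The knockout difference in the small intestine was 1.12 ± 0.35 (limma, adjusted p = 0.0822), the largest estimate above 0 among the 10 genes there, and it did not pass. In the large intestine it was -0.20 ± 0.35 (adjusted p = 0.823). The difference between these segment effects was -1.31 ± 0.50 (adjusted p = 0.163). Large minus small intestine gave 0.48 ± 0.35 in wild type (adjusted p = 0.361) and -0.83 ± 0.35 in the knockout (adjusted p = 0.147). The dim probe read -6.18 and -6.55 in wild-type and -6.58 on both arrays of knockout small intestine, and -6.32 and -7.14 in wild-type and -6.44 and -6.83 in knockout large intestine. Its knockout difference in the small intestine was -0.21 ± 0.32 (limma over all probes, adjusted p = 0.706).

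Notch3, the receptor of pericytes and vascular smooth muscle, was read at chr17:32257848-32257907 (mm9, minus strand). It gave 1.13 and 0.58 in wild-type small intestine, 1.72 and 1.85 in knockout small intestine, 0.96 and 1.0 in wild-type large intestine, and 0.70 and 0.31 in knockout large intestine. Both knockout small intestine arrays lay above the other 6 arrays. The other 3 groups followed closely, and neighbouring groups among them overlapped. Within the knockout, Notch3 was 2.42-fold lower in the large than in the small intestine (-1.28 ± 0.25, limma, adjusted p = 0.0198). In wild type the segments differed by 0.12 ± 0.25 (adjusted p = 0.754). The difference between these, -1.40 ± 0.36, had an adjusted p of 0.100, so Notch3 was not shown to depend on the genotype in its segment pattern. For the knockout against wild type the difference was 0.92 ± 0.25 in the small intestine (adjusted p = 0.0621) and -0.48 ± 0.25 in the large intestine (adjusted p = 0.460). The segment call in the knockout was lost without knockout small intestine array 2 or 3 (adjusted p = 0.0548 and 0.0589), without knockout large intestine array 3 (0.121) and without both knockout arrays numbered 3 (-1.02, adjusted p = 0.179).

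Markers of mural cells were set beside Notch3, which did not pass between genotypes. All 5 mural markers (Rgs5, Pdgfrb, Cspg4, Kcnj8 and Abcc9) read higher in the knockout small intestine, beside 42.8% of all genes, with a median difference of 1.05. Of the 5, 3 passed, beside 6.38% of all genes that passed higher, led by Abcc9 at 1.96 ± 0.44 (limma, adjusted p = 0.0436). Their mean level was 0.68 and 0.00 in wild-type and 1.33 and 1.90 in knockout small intestine, and 0.95 and 0.89 in wild-type and 0.65 and 0.16 in knockout large intestine. The mural markers and Notch3 were both highest in knockout small intestine and next in wild-type large intestine, but the lowest group was knockout large intestine for Notch3 and wild-type small intestine for the markers. The smooth muscle, enteric neuron, enteric glia and mesothelium marker lists had the same highest and next groups. The part of this shift in the Notch3 values was not tested.

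Notch4, a receptor of endothelial cells, was read at chr17:34725120-34725179 (mm9, plus strand). It gave -0.48 and -0.95 in wild-type small intestine, -0.11 and -0.18 in knockout small intestine, 0.26 on both arrays of wild-type large intestine, and 0.63 and 0.58 in knockout large intestine. No 2 groups overlapped, the knockout read higher in each segment, and the large intestine read higher in each genotype. In wild type Notch4 was 1.97-fold higher in the large intestine (0.98 ± 0.21, limma, adjusted p = 0.0245), and in the knockout the segment difference was 0.75 ± 0.21 (adjusted p = 0.0580). The wild-type call was lost without wild-type small intestine array 3 (0.74, adjusted p = 0.125) and without wild-type large intestine array 2 or 3 (0.124 and 0.129). The knockout difference was 0.57 ± 0.21 in the small intestine (adjusted p = 0.123), 0.34 ± 0.21 in the large intestine (adjusted p = 0.521) and 0.46 ± 0.16 over both segments (adjusted p = 0.233).

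The endothelial markers did not follow the order of Notch4. All 12 of them, among them Pecam1, Cdh5 and Kdr, were well above background on every array. Their mean level was 0.39 and 0.07 in wild-type and 0.87 and 0.51 in knockout small intestine, and -0.08 and 0.07 in wild-type and -0.36 and -0.55 in knockout large intestine. The group in which Notch4 was highest, knockout large intestine, was the one in which these markers were lowest. In the knockout small intestine 12 of 12 read higher (42.8% of all genes did), with a median difference of 0.41, and 0 passed in limma, with 3 at an unadjusted p under 0.05 beside 31.4% of all genes. In the knockout large intestine against the knockout small intestine all 12 read lower, while 48.3% of all genes read higher. Of the 12, 7 passed, beside 7.58% of all genes that passed lower, led by Sox17 at -1.55 ± 0.24 (limma, adjusted p = 0.00820). By group means Jag1 and the target Hey1 had the same order of groups as these markers, while Dll4 and Hey2 did not. How far endothelial content enters these values was not tested.

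**Figure D3:**
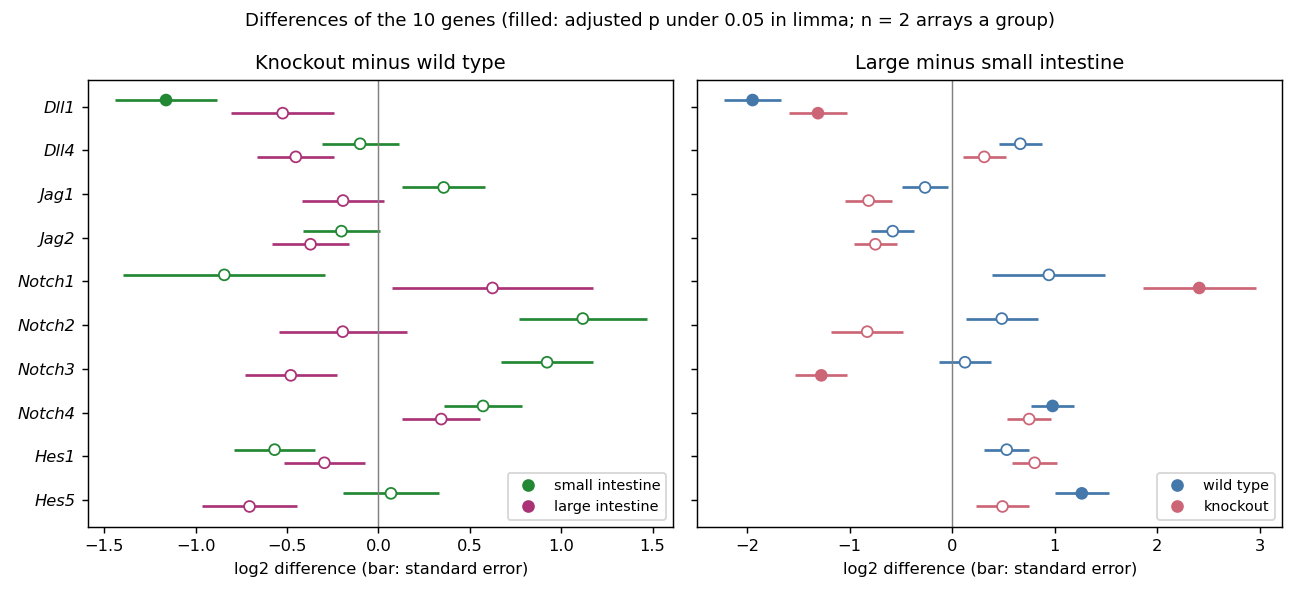
Log2 differences of the 10 genes (points) with standard errors (bars), knockout minus wild type on the left for the small and the large intestine, and large minus small intestine on the right for wild type and knockout, with 2 arrays a group. Filled points passed in limma: Dll1 in the knockout small intestine on the left, and Dll1 in both genotypes, Notch4 and Hes5 in wild type, and Notch1 and Notch3 in the knockout on the right.

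The target genes came last. Hes1, the repressor that holds Atoh1 down in crypt progenitors, was read at chr16:30067820-30067879 (mm9, plus strand). It gave -0.07 and -0.27 in wild-type small intestine, -0.50 and -0.97 in knockout small intestine, 0.30 and 0.43 in wild-type large intestine, and 0.09 and 0.05 in knockout large intestine. No 2 groups overlapped: the large intestine lay above the small intestine, and within each segment the knockout lay below wild type. The knockout difference was -0.57 ± 0.22 in the small intestine (limma, adjusted p = 0.136), -0.30 ± 0.22 in the large intestine (adjusted p = 0.581) and -0.43 ± 0.16 over both segments (adjusted p = 0.275). The segment difference was 0.53 ± 0.22 in wild type (adjusted p = 0.135) and 0.80 ± 0.22 in the knockout (adjusted p = 0.0531). None of these passed, although the order of the groups was the same on arrays 2 and on arrays 3.

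Hes5, a second repressor target of the pathway, was read at chr4:154336347-154336406 (mm9, plus strand). It gave -3.78 and -3.96 in wild-type small intestine, -3.80 on both arrays of knockout small intestine, -2.25 and -2.96 in wild-type large intestine, and -3.26 and -3.35 in knockout large intestine. Wild-type large intestine was the highest group and the small intestine groups overlapped at the bottom. Hes5 was 2.40-fold higher in the large than in the small intestine of wild type (1.26 ± 0.26, limma, adjusted p = 0.0211), and in the knockout the difference was 0.49 ± 0.26 (adjusted p = 0.229). The knockout difference was 0.07 ± 0.26 in the small intestine (adjusted p = 0.884) and -0.71 ± 0.26 in the large intestine (adjusted p = 0.337), where it was the one gene of the 10 with an unadjusted p under 0.05. The difference between the segment effects was -0.77 ± 0.37 (adjusted p = 0.241). The wild-type segment call was lost without wild-type small intestine array 2 or 3 (adjusted p = 0.0532 and 0.102) and without wild-type large intestine array 2 (0.91, adjusted p = 0.104).

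Over both segments, with 4 arrays a genotype, the remaining genes differed between knockout and wild type by less than their error allows to call. Limma gave -0.28 ± 0.16 for Dll4 (adjusted p = 0.487), 0.08 ± 0.19 for Jag1 (0.864) and -0.29 ± 0.15 for Jag2 (0.440). The receptors gave -0.11 ± 0.46 for Notch1 (adjusted p = 0.932), 0.46 ± 0.34 for Notch2 (0.572) and 0.22 ± 0.31 for Notch3 (0.770), and Hes5 gave -0.32 ± 0.23 (0.567). For the difference between the segment effects, Dll4 gave -0.35 ± 0.30 (adjusted p = 0.482), Jag1 -0.55 ± 0.32 (0.320), Jag2 -0.17 ± 0.30 (0.746), Notch4 -0.23 ± 0.30 (0.657) and Hes1 0.27 ± 0.31 (0.608). Notch2 and Notch3 were the 2 genes with an unadjusted p under 0.05 there, and in both the knockout estimate was above 0 in the small intestine and below 0 in the large intestine.

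Promoters of the 10 genes, where found, were searched for the core letters bound by RBPJ and by Hes repressors. These were chosen because Hes genes are targets and Notch genes can be. RefSeq promoters (GRCm38.p6, 250 bases before to 50 after the start, used for sequence only) were found for 9 of the 10 genes, with 2 promoters for Dll1. The missing gene was Hes1, so its promoter was not searched and nothing is said of it here. The RBPJ core, TGGGAA on the plus or TTCCCA on the minus reading, occurred in the promoter of Hes5, 2 times, and in none of the other 8 genes' windows, while 25.6% of all 32851 promoters hold it. The Hes N-box, CACNAG or CTNGTG, occurred in Notch1 (3 times, the last 2 overlapping each other), Notch2, Notch3, Dll1 and Dll4, and in 42.5% of all promoters. Both are short strings that many promoters hold, and no match says only that the letters are not in this window. The 250 bases before the Hes5 start (chr4:154960673-154960922, GRCm38.p6, plus strand) are shown because Hes5 differed between the wild-type segments and holds 2 RBPJ cores. These cores are in capitals.
Hes5 promoter: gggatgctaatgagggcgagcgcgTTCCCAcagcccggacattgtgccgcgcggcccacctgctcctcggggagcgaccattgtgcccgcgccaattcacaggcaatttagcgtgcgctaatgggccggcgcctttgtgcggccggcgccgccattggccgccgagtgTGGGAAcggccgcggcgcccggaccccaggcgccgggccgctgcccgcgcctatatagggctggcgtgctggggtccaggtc
Counted from the start, the minus-strand core lies at -226 to -221 and the plus-strand core at -82 to -77.

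Around the 10 genes, 65 of 67 other Notch pathway genes in 9 lists were measured. In the knockout small intestine 6 of them rose and 4 fell, beside 6.38% and 3.51% of all genes. In the knockout large intestine, over both segments and for the difference between segments, 0 of 65 passed in limma, with 4, 4 and 16 at an unadjusted p under 0.05, which is 6.15%, 6.15% and 24.6% of the 65 beside 13.3%, 15.2% and 25.8% of all genes. Between segments 9 were higher and 7 lower in the large intestine of wild type (9.93% and 9.93% of all genes), and 6 higher and 5 lower in the knockout (8.27% and 7.58%).

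The falls included 3 of 6 secretory lineage factors, the transcription factors downstream of Notch in the epithelium. Over all genes 3.51% passed lower, and this list was chosen with earlier results of these data known. Neurog3, which starts the endocrine lineage, read 1.19 and 0.96 in wild-type and -1.26 and -0.51 in knockout small intestine, a fall of 3.88-fold (-1.96 ± 0.28, limma, adjusted p = 0.0232). In the large intestine Neurog3 read 0.57 and 0.45 in wild type and 1.19 and 1.08 in the knockout, the other way and not past the threshold (0.62 ± 0.28, adjusted p = 0.396), and the difference between the segment effects was 2.58 ± 0.39 (adjusted p = 0.0971). Neurod1, a later endocrine factor, read -3.81 and -3.30 in wild-type and -4.96 and -5.43 in knockout small intestine (-1.64 ± 0.30, adjusted p = 0.0337). Atoh1, the driver of the secretory lineages, read -0.57 and -0.02 in wild-type and -2.25 and -1.55 in knockout small intestine (-1.61 ± 0.34, adjusted p = 0.0396). Atoh1 and Hes1, its repressor, both read lower in the knockout small intestine, and of the pair only Atoh1 passed. Of the other secretory factors none passed. Insm1, an endocrine factor named here after its values were seen, read higher in the knockout, at 0.48 and 0.42 in wild-type and 0.79 and 1.39 in knockout small intestine (0.64 ± 0.24, adjusted p = 0.123). The median of the 6 was -1.35, beside -0.10 over all genes.

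Of 7 measured other targets, which are Hes and Hey genes and Nrarp, the vascular targets Hey1 and Hey2 rose in the knockout small intestine. Over all genes 6.38% passed higher there. Hey1 read 0.72 and 0.47 in wild-type and 1.66 and 1.41 in knockout small intestine (0.94 ± 0.20, limma, adjusted p = 0.0394). Hey2 read -4.05 and -4.74 in wild-type and -3.13 and -2.42 in knockout small intestine (1.61 ± 0.34, adjusted p = 0.0394). Hes1, of the same family of targets, read lower there and did not pass, and the median of the 7 was -0.19. Among 4 other ligands Dlk1, a non-canonical ligand of mesenchyme, rose (1.87 ± 0.43, adjusted p = 0.0461), with 1.16 (adjusted p = 0.109) without knockout small intestine array 3 and 1.16 to 2.58 over the 8 arrays left out in turn, of which 1 fit passed.

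Genes that modify receptors and ligands moved both ways in the knockout small intestine, where 9.89% of all genes passed. Mfng, a Fringe enzyme that extends sugars on Notch, rose (0.93 ± 0.22, limma, adjusted p = 0.0482), and Pofut1, which adds the first of these sugars and is needed for ligand binding, fell 2.52-fold (-1.34 ± 0.28, adjusted p = 0.0398). They were 2 of the 5 glycosylation genes. Neurl1a, a ubiquitin ligase for ligands, rose 3.64-fold (1.87 ± 0.32, adjusted p = 0.0316), 1 of 4 in its list. Numbl, a relative of the Notch inhibitor Numb, rose (1.57 ± 0.35, adjusted p = 0.0431), 1 of 9 turnover genes. For receptor cleavage (9 genes), the nuclear complex with Rbpj (9 genes) and the corepressors (12 genes) 0 passed in limma, with 2, 0 and 2 at an unadjusted p under 0.05, beside 31.4% of all genes.

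These 10 calls kept their direction in the 18 alternatives run for them, which leave out the test of every probe separately, but their number did not hold. With the mean over the probes of a gene, 9 of them passed and Pofut1 did not. No pathway gene passed without wild-type small intestine array 3, without either wild-type large intestine array or without both knockout arrays numbered 3. Neurog3 alone passed without knockout small intestine array 3 and with no filter on dim probes, and 3 passed without either knockout large intestine array.

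**Figure D4:**
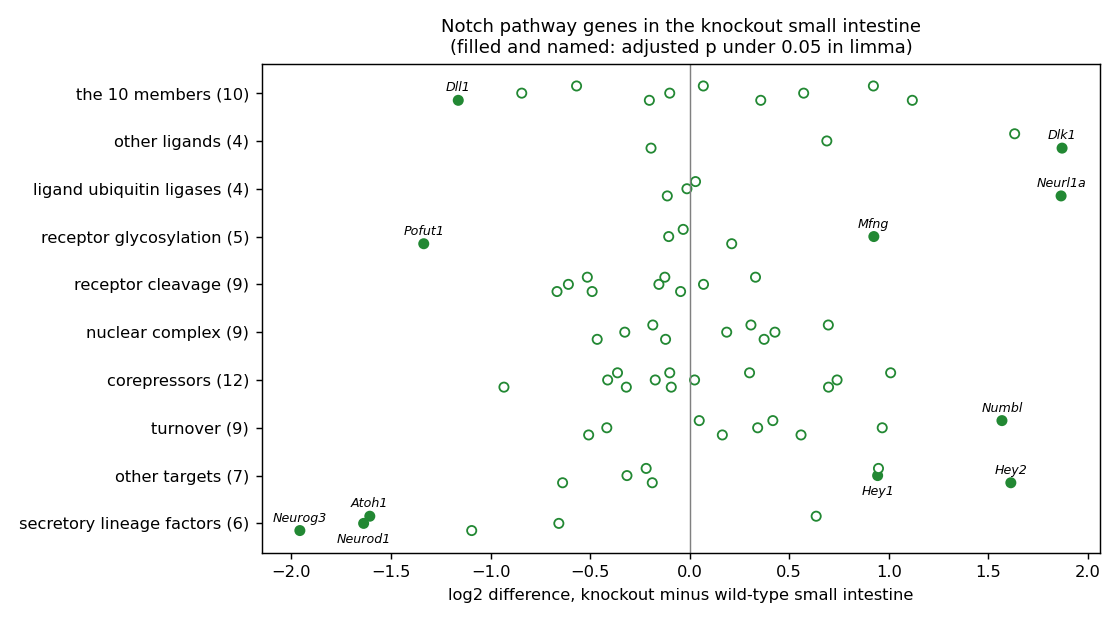
Knockout minus wild-type log2 difference in the small intestine for the 10 genes and for 65 other Notch pathway genes in 9 lists, 1 point a gene, with the number measured in parentheses; filled and named points passed in limma. Dll1, Pofut1 and 3 secretory lineage factors lie left of 0, and 6 other pathway genes lie right of it.

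Markers of other cell types shifted in the knockout small intestine beside these genes. Here a marker rose or fell when it passed. Over all genes 6.38% rose and 3.51% fell, with a median difference of -0.10. The number of calls over all genes varied widely with an array left out, as given at the end. The mean level of 12 epithelial markers was 3.88 and 4.36 in wild-type and 3.77 and 3.62 in knockout small intestine, and 4.30 on both wild-type and 4.57 and 4.93 on knockout large intestine arrays. Their median difference in the small intestine was -0.37, and 3 of 12 fell, Cdx2 most (-1.73 ± 0.36, limma, adjusted p = 0.0394), while Cldn4 read highest (1.27 ± 0.58, adjusted p = 0.191). Enteric neuron markers rose in 8 of 10 (median 2.02) and glial markers in 5 of 7, with 1 lower (median 2.02). Mesothelial markers rose in 3 of 5 (median 1.64), fibroblast markers in 3 of 10 (median 0.95), smooth muscle markers in 1 of 10 (median 1.57) and lymphatic markers in 1 of 4 (median 0.58). Leukocyte markers rose in 1 and fell in 4 of 12 (median -0.33). Exocrine pancreas markers rose in 1 of 7, and in liver (5 measured) and red cell (2 measured) markers 0 passed in limma, with 1 and 0 at an unadjusted p under 0.05. How far these shifts enter the values of Dll1, Notch2, Notch3, Hes1 and the other genes was not tested.

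**Figure D5:**
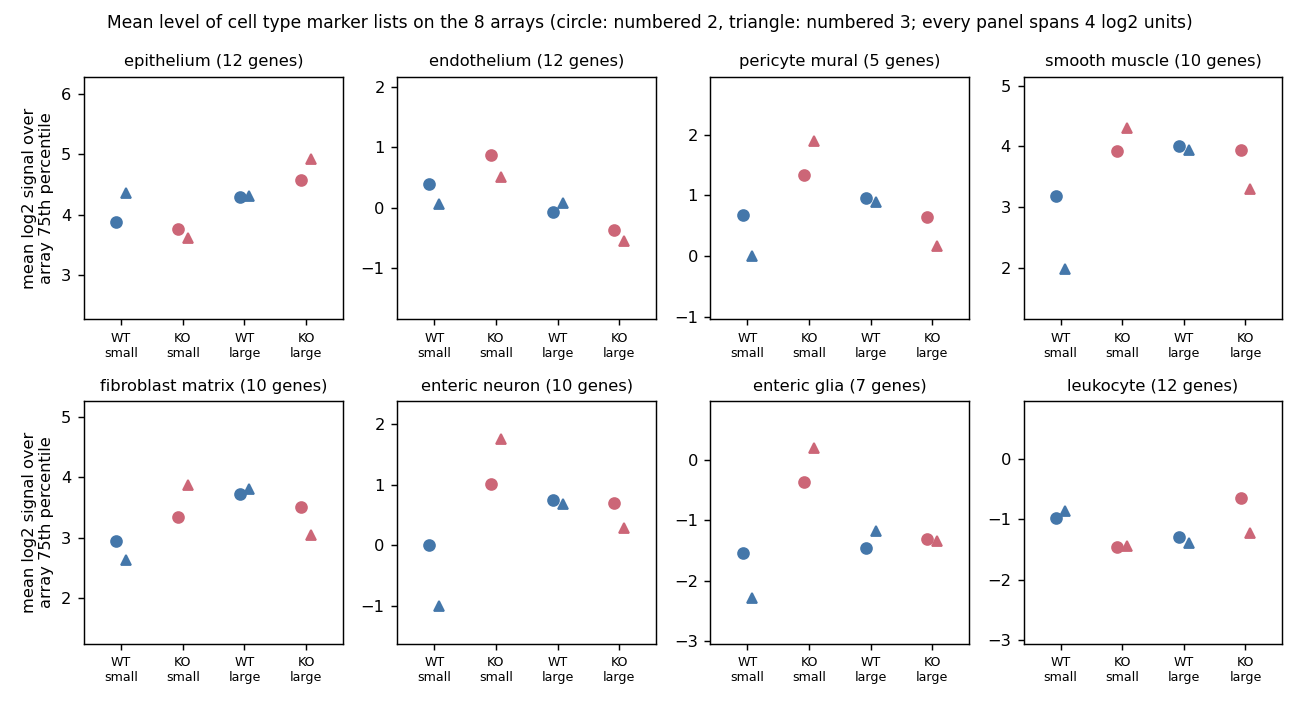
Mean log2 signal over the array's 75th percentile (vertical axis) of 8 cell type marker lists on the 8 arrays (circles are arrays numbered 2, triangles arrays numbered 3; blue is wild type, red knockout; every panel spans 4 log2 units). In the small intestine the mural, smooth muscle and enteric neuron lists read higher on both knockout arrays (1.33 and 1.90 for mural markers) than on both wild-type arrays (0.68 and 0.00).

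The genes whose pattern over the 8 arrays was most like each of the 10 were found by Pearson r among 17908 genes well above background on every array. They are a description over 8 arrays that share groups and slide. For the receptors they were Ccdc172, Gm4578 and Slc16a7 for Notch1 (highest r = 0.995), Map1a, Kcnj10 and Ptpro for Notch2 (0.987), Trim47 and Limch1 for Notch3 (0.996), and Gm9790, Srgap1 and Slc13a2 for Notch4 (0.988). For the ligands they were AI413194, Ifnab and Folr2 for Dll1 (0.997), Slc11a2, Kcnj16 and Kif9 for Dll4 (0.946), Plscr2, Peak1 and Gja5 for Jag1 (0.987), and Tbc1d24, Kif27 and Gask1b for Jag2 (0.991). For the targets they were Gatd3a, Ankrd37 and Ebpl for Hes1 (0.987) and Zfp664, Tarsl2 and Tdrd3 for Hes5 (0.984). None of the 10 genes was among the 3 most like genes of another.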

How the data were processed

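Total RNA was measured on 8 Agilent 1-colour arrays (Cy3), 2 in each of 4 groups taken from the titles. Per the file headers, the deposited values are the spot intensity that Agilent Feature Extraction 10.7.3.1 gave after subtracting background on each array, with no scaling between arrays, and probe positions are those of mm9. The authors also gave normalized values on a linear intensity scale, with medians of 159 to 161 per column and r of at least 0.991 with the log2 values of the same array; their scale is linear, their centring near-equal, and their background step unknown. The submitters' processing notes name R 3.3.0; any further step is not given in the sources used here.

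Levels are log2 processed signal minus the 75th percentile of the array over its 59305 non-control spots (2642.5 to 3571.77 signal units). Outlier-flagged spots were dropped, replicate spots of a probe averaged, probes that no group had well above background on its 2 arrays were dropped, and the probe with the highest mean stood for its gene. Probes were named through RefSeq accessions and symbols of assembly GRCm38.p6. That gave 20128 genes (and 38716 probes where every probe was tested). Tables were read with data.table version 1.17.8 in R 4.3.3. There limma 3.58.1 fitted 1 mean per group over all 8 arrays (4 residual degrees of freedom), and genotype and segment as additive terms for both segments together (5 residual degrees of freedom), with empirical Bayes moderation and Benjamini-Hochberg adjustment within each of 6 comparisons. The fit was tested on simulated data.

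The 10 genes and the gene lists (9 pathway, 13 cell type marker) were chosen with earlier results of these data known. The text names the 10 genes, up to 4 pathway genes a list with the smallest p among those that passed in a knockout comparison, the 3 genes most like each of the 10 by r, and of a marker list the genes with the highest and lowest difference. Cldn7, Xist, Ddx3y, Alb and Amy2a5 are named as checks of the samples. One gene that the rule selects is not reported here. Other names are list members given to say what a list holds.

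The alternatives were normexp background correction (offset 50), quantile normalization, the deposited normalized values, no filter on background, only probes above background on each of the 8 arrays, flagged spots kept, the mean over the probes of a gene, a replicate block, an animal block, the fit without both knockout arrays numbered 3, each array left out in turn, and every probe tested separately.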

Additional observations from a re-analysis of the deposited data

How the results depend on the processing

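Of 10 genes, 1 passed in the knockout small intestine, and 0 did with no filter on dim probes, outlier flags ignored, a replicate block, an animal block or without both knockout arrays numbered 3, and 0 to 1 with an array left out. Over both segments 0 passed, and 1 (Dll1) did with an animal block, which takes arrays of 1 genotype and number as 1 animal, an assumption the labels do not state, and had an estimated correlation of -0.288. In the knockout segment comparison 3 passed, and 5 with normexp, 6 with only probes above background on all 8 arrays, 1 without both knockout arrays numbered 3, and 0 to 3 with an array left out. In the wild-type segment comparison 3 passed, and 1 to 4 with an array left out. In the knockout large intestine and the difference between segments 0 passed under every alternative run. The numbers 2 and 3 share a slide row and are not tied to animals; deviations from the group mean of same-numbered arrays correlated at 0.00648 to 0.261 across genes. With the replicate block the adjusted p of Dll1 in the knockout small intestine was 0.0640, and 5 of the other pathway genes passed in place of 10 (0 without both knockout arrays numbered 3, 1 with no filter on dim probes, 0 to 10 with an array left out). Testing every probe separately was chosen after seeing the data.

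Signs turned only for values that had not passed; brackets give the range with an array left out. In the knockout small intestine Dll4 read 0.11 without knockout small intestine array 3, alone or with its large intestine counterpart (-0.31 to 0.11), and Hes5 -0.022 without wild-type small intestine array 3 (-0.022 to 0.16). In the knockout large intestine, without knockout array 3, alone or both, Notch1 read -0.048 (-0.048 to 1.30) and Notch2 0.039 (-0.48 to 0.091), and Notch2 0.091 without wild-type large intestine array 2. Over both segments Notch1 read 0.21, 0.20 and 0.01 without wild-type small 2, knockout small 2 and knockout large 2 (-0.53 to 0.21), Notch3 -0.029 (-0.029 to 0.44) and Jag1 -0.064 (-0.064 to 0.19) without wild-type small 3, and Jag1 -0.0039 without knockout small 3. For the difference between segments Notch4 read 0.0068 without wild-type small 3 (-0.46 to 0.0068) and Jag2 0.00029 with the deposited values. Notch3 between wild-type segments read -0.15 without wild-type small 3 (-0.15 to 0.40). The cause was not tested.

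Over all genes, 1990 passed in the knockout small intestine (485 with no filter, 1162 with the replicate block, 14 without both knockout arrays numbered 3, 70 to 3827 with an array left out). In the large intestine 62 passed (19, 15, 100, and 0 to 86 in that order, and 32 with only probes above background on all 8 arrays), and over both segments 131 (53, 66, 5, and 1 to 58, with 85 under normexp and 785 with an animal block). For the difference between segments 28 passed (15 with no filter, 5 with only probes above background on all 8 arrays, 11 without both knockout arrays numbered 3, 1 to 941 with an array left out). Between segments 3997 passed in wild type (900 to 4991 with an array left out) and 3191 in the knockout (1645 without both knockout arrays numbered 3, 1202 to 3068 with an array left out).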
